A study of Mus musculus with 20 samples.

Results

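The genes described here are those transcribed in the condylar heads of the 8 control mice of a series on the temporomandibular joint (TMJ), the hinge of the lower jaw. A gene was included when its level in CPM (counts per 1000000 counts of the library) averaged at least 1 over the 8 control libraries, which kept 14534 of the 54532 genes listed and used 8 of the 20 libraries. At this limit *Ccne1*, with a mean of 1.0005 CPM, was the lowest gene kept and *Slc16a12*, with 0.9995 CPM, the highest gene left out. All control animals carried an aggrecan (*Acan*) locus with tamoxifen-dependent Cre (Acan-CreERT2) together with floxed *Loxl2* alleles (Loxl2 fl/fl), and they received vehicle instead of tamoxifen, so the recombinase was present but not switched on. Per the methods of the study they were 6 months old at the first injection, had 5 daily injections followed by monthly ones and were sampled 4 months later. The vehicle group is given there as 4 males and 4 females, while the labels give no sex for a library. The samples are condylar heads that include some of the bone beneath the cartilage. Libraries are called here by their replicate number, 1 to 8, and the labels give no batch.

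The condylar head is covered by a fibrous layer over a zone of cartilage whose deeper cells enlarge (hypertrophy) and give way to bone. Chondrocytes secrete type II collagen and the large proteoglycan aggrecan, osteoblasts lay down bone matrix rich in type I collagen, and osteoclasts dissolve it with acid and the protease cathepsin K. The marrow holds blood-forming cells, and a jaw muscle, the lateral pterygoid, inserts on the neck and front of the condyle. Lysyl oxidases, of which *Loxl2* encodes one, crosslink collagen and elastin.

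Library totals ran from 14177222 to 23795467 counts, so that 3 counts, taken as the floor of detection, equal 0.126 to 0.212 CPM. That floor covers counting error alone. No pair of libraries was alike to within counting noise, so none was treated as a library deposited a second time. Several libraries stood apart. Libraries 6 and 8 were far lower in cartilage transcripts than the others, and library 8 had the most muscle transcripts. Libraries 1 and 5 carried Schwann cell transcripts, and library 7 was low in ribosomal RNA. Sex-linked genes gave 5 libraries with *Xist* above 100 CPM (libraries 1, 2, 4, 5 and 6) and 3 with the 4 Y-linked genes *Ddx3y*, *Eif2s3y*, *Kdm5d* and *Uty* above 5 CPM each (3, 7 and 8), which is not the 4 and 4 of the methods. *Kdm5d* in library 4 stood at 0.517 CPM. Values below are therefore given by library, and no groups were formed.

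Of the genes kept, 13232 (91.04%) were protein-coding, 348 were processed pseudogenes and 270 were long intergenic RNAs. In mean level, 88 genes reached 1000 CPM, 1242 lay from 100 to 1000 CPM, 7616 from 10 to 100 CPM and 5588 from 1 to 10 CPM. The mitochondrial genome took 15.2% to 23.1% of the counts of a library. Levels of different genes are compared below per length only, as TPM (counts divided by the summed exon length and scaled to the same total in each library). Because a short gene annotated as a miRNA (*Gm23935*, below) took a large and variable share of TPM, the share of a tissue is given as a percentage of the TPM of nuclear protein-coding genes.

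Skeletal muscle transcripts led the nuclear protein-coding genes in these joint samples. *Acta1*, the skeletal muscle actin, stood first at 28488 TPM, followed by *Tnnt3* (fast troponin T) at 12932 TPM, *Mb* (myoglobin) at 8100 TPM, *Atp2a1* (the calcium pump of fast fibres) at 7379.7 TPM and *Tnni2* (fast troponin I) at 7101 TPM. *Mylpf*, the regulatory light chain of fast myosin, had 6883 TPM, *Aldoa*, a glycolytic enzyme, 6291 TPM, *Tcap*, a cap protein of titin, 6172 TPM, and *Tpm2*, a tropomyosin, 5304 TPM. The lowest value among these 9 genes in any library was 1967 CPM (*Tcap* in library 3). The fast muscle list of 17 genes, of which 16 were kept, made up 17.2% ± 4.59 (SD, n = 8) of nuclear protein-coding TPM, from 12.1% in library 1 to 26.5% in library 8. Of the 100 most abundant such genes, 13 were on that list, 17 on the list of nuclear oxidative phosphorylation genes and 9 on that of cytosolic ribosomal proteins, against 2 on the fibrous tissue list, 2 on the cartilage list and 1 on the osteoblast list. The 17th muscle gene, *Tnnc2*, the fast troponin C, was listed with 6 to 31 counts per library (0.332 to 1.95 CPM) and a mean of 2.16 TPM, beside the far higher levels per length of its partners *Tnnt3* and *Tnni2*. How reads in overlapping genes were assigned is not given in the sources used here, and its part in this value was not tested.

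**Figure D1:**
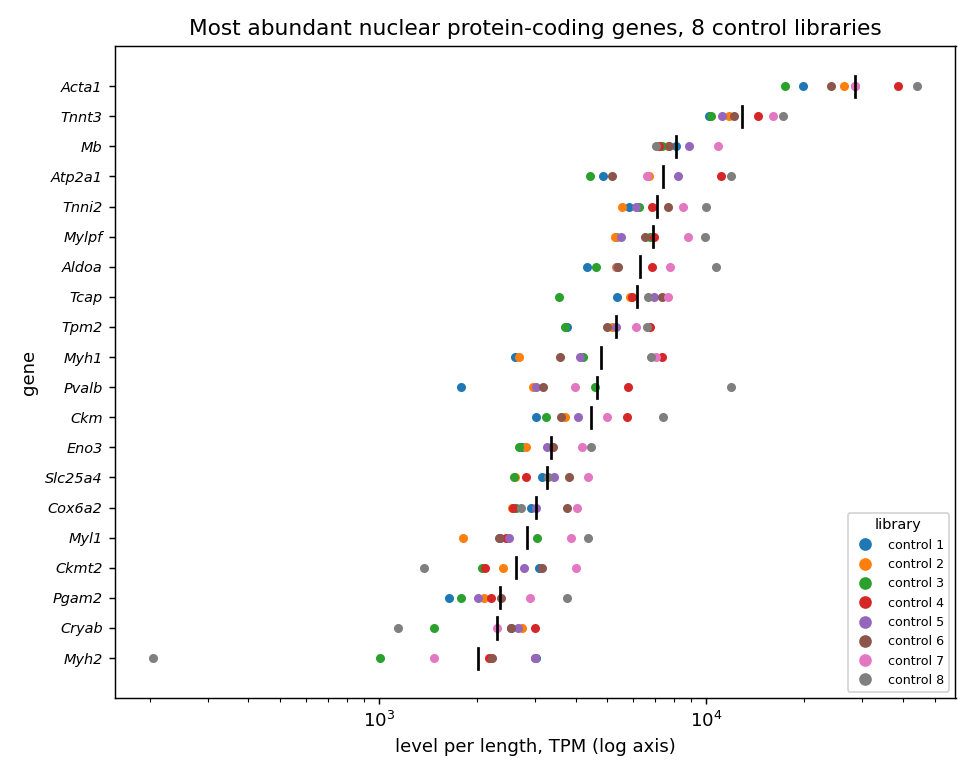
The 20 most abundant nuclear protein-coding genes in level per length (TPM, log axis); each point is one of the 8 control libraries and each black bar the mean. Muscle genes fill the top places, and *Myh2* in library 8 is the point farthest below its gene's mean.

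The single most abundant nuclear entry by TPM was *Gm23935*, annotated as a miRNA gene of 57 bases at chr16:11144125-11144181, with 163400 TPM on average. Its values were 3934, 7681, 9897, 6704, 2910, 4881, 12.2 and 3181 CPM in libraries 1 to 8. The annotated ribosomal RNA *CT010467.1* read 4144, 11230, 15460, 7454, 3250, 6051, 74.7 and 4556 CPM. Library 7 was the lowest in both, and also in the mitochondrial ribosomal RNAs *mt-Rnr1* (10.8 CPM) and *mt-Rnr2* (62.0 CPM). How ribosomal RNA was depleted is not given in the sources used here, and its part in these values was not tested.

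The protein genes of the mitochondrial genome were themselves far from equal. *mt-Co1*, a subunit of cytochrome oxidase, was highest at 87912 TPM, followed by *mt-Cytb* at 50947 TPM and *mt-Nd1* at 49909 TPM. *mt-Co2* and *mt-Co3*, subunits of the same enzyme, were at 1805 TPM and 1856 TPM and *mt-Atp8*, of ATP synthase, at 29.4 TPM. *mt-Co3* read 728, 260.2, 191, 142, 466, 2152, 195 and 1773 CPM in libraries 1 to 8, with libraries 6 and 8 highest, whereas *mt-Co1* stayed within 57747 to 85515 CPM. Nuclear copies of mitochondrial sequence can share reads with these genes, and the treatment of such reads is not given in the sources used here.

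Among muscle genes the mix of myosin forms differed between libraries. Myosin heavy chain is the motor of the fibre, and its forms mark fibre types, with *Myh7* in slow fibres, *Myh2* (2A), *Myh1* (2X) and *Myh4* (2B) in fast ones. *Myh1* read 7704, 9165, 15563, 24318, 11596, 12450, 18991 and 21593 CPM in libraries 1 to 8. *Myh2* read 10070, 11541, 4174, 8103, 9522, 8646, 4496 and 731 CPM. *Myh4* read 9.08, 329.6, 4363, 379.9, 70.7, 102, 1872 and 14362 CPM, the widest range of the 3 fast forms, with libraries 8, 3 and 7 highest and library 1 lowest. These 3 are also the libraries with Y-linked transcripts, and the part of sex in the level of *Myh4* was not tested. Of the TPM of these 4 genes *Myh1* held 60.8% ± 11.5 (SD, n = 8), and it led in libraries 3 to 8, while *Myh2* led in libraries 1 (53.7%) and 2 (51.9%). *Myh2* was at 1.74% in library 8, where *Myh4* held 40.5%, and *Myh4* was at 0.0575% in library 1. *Myh7* did not pass 0.064% in any library. The slow muscle list of 8 genes took 0.0445% of nuclear protein-coding TPM on average, against 17.2% for the fast muscle list, but its genes were unequal. *Tnnt1* (slow troponin T) lay at 1.37 to 23.4 CPM (median 6.33) and *Tnni1* (slow troponin I) at 0.754 to 19.0 CPM (median 4.75). Per length the list was led by *Myoz2*, *Atp2a2* and *Myl2*, at ranks 685, 1090 and 1625 among 13219 nuclear protein-coding genes kept. *Myoz2*, a Z-disc protein of slow fibres, lay at 14.3 CPM in library 8 against 135 to 244 CPM in the others.

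The sequences just upstream of the 3 fast myosin genes are shown because these genes stand next to each other on one chromosome and yet differed in how they varied, and those of *Ibsp*, *Bglap* and *Col10a1* because these genes mark bone and hypertrophic cartilage in the results that follow. Each is the 250 bases before the RefSeq transcription start in GRCm38.p6, 5′ to 3′ on the gene's strand. Capitals mark TATAAA on either strand and the MEF2 consensus, the binding motif of the muscle factor MEF2, and an A/T-rich MEF2 match can overlap a TATAAA on the other strand, as it does upstream of *Myh1* and *Myh4*. *Myh2* is at chr11:67170777-67171026 on the plus strand, *Myh1* at chr11:67199852-67200101 on the plus strand, *Myh4* at chr11:67237562-67237811 on the plus strand, *Ibsp* at chr5:104299037-104299286 on the plus strand, *Bglap* at chr3:88384467-88384716 on the minus strand and *Col10a1* at chr10:34389731-34389980 on the plus strand.
Myh2: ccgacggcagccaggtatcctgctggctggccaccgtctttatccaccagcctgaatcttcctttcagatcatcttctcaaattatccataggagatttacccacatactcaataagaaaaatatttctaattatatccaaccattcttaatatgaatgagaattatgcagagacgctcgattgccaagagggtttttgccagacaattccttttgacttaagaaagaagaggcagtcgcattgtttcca
Myh1: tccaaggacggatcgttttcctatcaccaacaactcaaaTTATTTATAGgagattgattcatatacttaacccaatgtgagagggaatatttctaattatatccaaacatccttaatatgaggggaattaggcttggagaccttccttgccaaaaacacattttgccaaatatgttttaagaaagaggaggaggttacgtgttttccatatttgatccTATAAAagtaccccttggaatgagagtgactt
Myh4: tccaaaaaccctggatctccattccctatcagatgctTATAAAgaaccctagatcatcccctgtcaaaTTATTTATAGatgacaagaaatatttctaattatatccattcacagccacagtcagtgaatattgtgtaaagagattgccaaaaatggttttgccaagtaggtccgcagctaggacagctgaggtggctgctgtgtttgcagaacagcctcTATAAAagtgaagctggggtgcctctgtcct
Ibsp: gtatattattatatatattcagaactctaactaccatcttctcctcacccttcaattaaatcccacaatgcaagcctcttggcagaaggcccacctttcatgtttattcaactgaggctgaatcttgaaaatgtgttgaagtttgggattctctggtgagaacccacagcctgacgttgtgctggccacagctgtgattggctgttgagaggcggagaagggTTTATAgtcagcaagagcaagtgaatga
Bglap: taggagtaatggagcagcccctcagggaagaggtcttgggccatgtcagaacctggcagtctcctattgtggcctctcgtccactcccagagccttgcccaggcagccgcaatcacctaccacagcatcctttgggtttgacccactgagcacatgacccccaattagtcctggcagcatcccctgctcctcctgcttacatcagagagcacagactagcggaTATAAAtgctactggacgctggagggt
Col10a1: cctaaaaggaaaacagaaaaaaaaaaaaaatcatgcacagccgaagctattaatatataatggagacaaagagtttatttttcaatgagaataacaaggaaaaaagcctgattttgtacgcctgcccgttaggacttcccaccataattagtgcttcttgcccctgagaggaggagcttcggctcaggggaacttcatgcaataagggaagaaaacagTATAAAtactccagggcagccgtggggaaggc

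Such windows were listed for 10776 of the genes kept, matched by symbol. The MEF2 consensus was found in 2.24% of them and in 4 of the 12 fast muscle genes with a window (*Myh1*, *Myh4*, *Pvalb* and *Ttn*). It was also found in 1 of 5 hypertrophic cartilage genes (*Pth1r*) and 1 of 9 cartilage genes (*Sox6*), and in no osteoblast, osteoclast or neutrophil gene with a window. TATAAA, on either strand, was found in 8.28% of all windows, in 4 of 12 fast muscle genes, 4 of 7 osteoblast genes, 3 of 5 hypertrophic cartilage genes, 3 of 9 cartilage genes and none of 5 osteoclast genes. *Myh2* had neither motif in its window, whereas *Myh1* and *Myh4* had both. These windows are not placed alike against the GENCODE gene starts. The *Myh2* window ends at 67171026, just before its gene start at 67171027, while the *Myh1* window ends at 67200101, past its gene start at 67200052. Whether *Myh2* has a TATAAA just beyond its window was not tested. All the motif hits are matches of letters, not sites of binding.

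**Figure D2:**
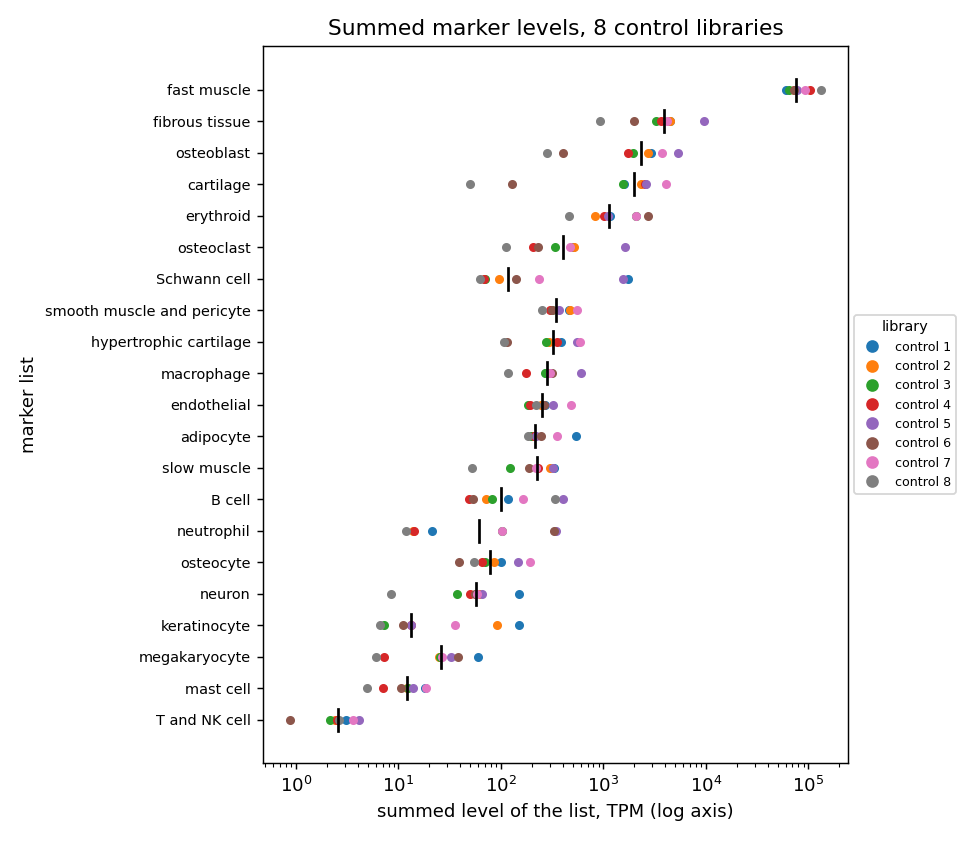
Summed level of each marker list (TPM, log axis); each point is one of the 8 control libraries and each black bar the median. Fast muscle lies above every other list plotted, and libraries 6 and 8 fall far to the left in the cartilage and osteoblast lists.

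Cartilage transcripts were a small part of these libraries and differed widely between them. The cartilage list, 15 of whose 20 genes were kept, made up 0.367% ± 0.241 (SD, n = 8) of nuclear protein-coding TPM, with 0.00982% in library 8, 0.0284% in library 6 and 0.32% to 0.697% in the other 6. In bulk RNA, fewer cells of a type and less RNA per cell cannot be told apart. *Acan* (chr7:79053483-79115099, GRCm38), whose locus drives the Cre of these mice, read 113, 156, 105, 239, 234, 2.04, 49.6 and 1.59 CPM in libraries 1 to 8. *Col2a1*, the type II collagen of cartilage, read 649.8, 742, 294, 1005, 892, 70.9, 752 and 1.21 CPM. Both genes were at their lowest in libraries 6 and 8, and library 7 was low in *Acan* but not in *Col2a1*. By level per length the cartilage genes were led by *Chad* (chondroadherin) at 786 TPM, *Comp* (cartilage oligomeric matrix protein) at 603 TPM, *Clec3a* (a cartilage lectin) at 187 TPM and *Col2a1* at 123 TPM. *Comp* read 682, 1417, 916, 1341, 1083, 84.2, 1456 and 22.8 CPM, and *Chad* 380.5, 841, 618, 953, 742, 24.96, 1508 and 11.9 CPM. *Clec3a* had 1.44 CPM in library 6 and no count in library 8, against 53.7 to 99.5 CPM elsewhere. *Sox9*, the master regulator of chondrocytes, varied less and read 27.2, 24.0, 15.9, 17.7, 16.6, 7.26, 17.2 and 3.68 CPM. Its partners *Sox5* and *Sox6*, used in other tissues too, did not follow the matrix genes: *Sox5* was highest in library 6 at 15.4 CPM, and *Sox6* had 71.6 CPM in library 8 within its range of 46.3 to 81.0 CPM. Among the 5 genes not kept, *Matn1* had no count in any library, *Col9a1* reached 1.76 CPM and *Matn3*, *Cnmd* and *Epyc* stayed below 1 CPM in every library. The labelled tissue thus carried its defining cartilage markers in 6 libraries, while in libraries 6 and 8 they were far lower. Library 6 still read 70.9 CPM for *Col2a1* and 84.2 CPM for *Comp*.

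The hypertrophic cartilage list, like the cartilage list, was lowest in libraries 8 and 6 and highest in library 7. It took 0.0213%, 0.0258% and 0.1025% of nuclear protein-coding TPM in libraries 8, 6 and 7. Its single genes differed in the library where they peaked. *Col10a1*, the collagen of hypertrophic chondrocytes, read 65.0, 48.1, 69.9, 68.7, 49.8, 2.04, 307 and 0 CPM, more than 4 times as high in library 7 as in any other. *Ihh*, a signal of prehypertrophic cells, was also highest in library 7 at 7.98 CPM, with 0.22 to 5.94 CPM in the rest. *Pth1r*, the receptor of parathyroid hormone-related protein, read 135, 114, 128, 178, 222, 27.8, 134 and 17.2 CPM, and there library 5 was highest. *Mef2c*, shared by muscle, stayed within 443 to 625 CPM in all 8.

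Genes of bone-forming cells were low in the same pair of libraries. The osteoblast list made up 0.469% ± 0.298 (SD, n = 8) of nuclear protein-coding TPM, with 0.0911% in library 6, 0.056% in library 8 and 0.359% to 0.96% in the others. *Spp1* (osteopontin) led at 966 TPM, then *Ibsp* (bone sialoprotein) at 429 TPM and *Bglap* (osteocalcin) at 401 TPM. *Ibsp* (chr5:104299171-104311469) read 520.2, 399, 375, 376, 724, 58.9, 886 and 22.6 CPM in libraries 1 to 8, with libraries 6 and 8 again lowest. *Bglap* read 143, 172, 71.4, 30.3, 409.9, 25.02, 73.4 and 16.0 CPM, highest in library 5 and only 30.3 CPM in library 4, where *Ibsp* was not low. *Bglap* and *Bglap2* are near-identical, so the split of reads between them is uncertain. *Sp7* and *Runx2*, the factors of the osteoblast lineage, lay at 12.5 to 118 CPM (median 54.1) and 9.88 to 72.1 CPM (median 55.1). Osteocytes, the cells buried in bone, were seen through *Dmp1*, a mineralization protein, at 8.29 to 81.8 CPM (median 41.5), and through *Sost*, the secreted inhibitor of bone formation, which read 6.22, 8.13, 6.40, 7.70, 12.2, 8.64, 42.9 and 0 CPM. *Sost* and *Mepe* were highest in library 7, at 42.9 and 29.5 CPM.

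Osteoclast genes peaked in library 5. Their list made up 0.0984% ± 0.0844 (SD, n = 8) of nuclear protein-coding TPM, with 0.293% in library 5 and at most 0.112% in any other. *Ctsk* (cathepsin K, chr3:95499256-95509362) read 162, 202, 135, 68.0, 450.2, 95.0, 146 and 34.7 CPM. *Acp5*, tartrate-resistant acid phosphatase, read 112, 138, 101, 51.4, 480, 56.2, 86.8 and 21.6 CPM, and *Mmp9*, a gelatinase, 129, 119.9, 82.8, 39.1, 409.8, 38.0, 83.4 and 19.3 CPM. In all of these library 5 stood more than 2 times above the next. *Calcr*, the calcitonin receptor, was not kept, with 0 to 2.33 CPM.

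The fibrous tissue list was the largest of the connective tissue lists, with 0.812% ± 0.447 (SD, n = 8) of nuclear protein-coding TPM and all 18 genes kept. *Col1a1*, a chain of type I collagen shared with bone, led at 1026 TPM, then *Fmod* (fibromodulin) at 652 TPM and *Col1a2*, the other chain of that collagen, at 488 TPM. Both collagen genes were placed on this list and not on the osteoblast list, so the size of the list depends in part on that choice. *Dcn* (decorin, chr10:97479609-97518143), a small proteoglycan of fibrous matrix, read 896, 974, 1283, 712, 975, 334, 1338 and 229 CPM and was lowest in libraries 6 and 8 too. *Col1a1* read 3249.9, 3673, 1969.6, 2185, 10675, 1292, 1873 and 800.3 CPM, with library 5 far above the rest. *Prg4*, the lubricin of the joint surface and synovium, did not follow the cartilage genes and read 79.2, 158, 79.7, 51.2, 301, 1581, 199 and 42.8 CPM, with the highest value in library 6, which had almost no *Acan*. The tendon factors *Scx* and *Mkx* lay at 14.96 to 25.1 CPM (median 18.5) and 3.96 to 13.1 CPM (median 8.56), and *Scx* was not lowered in library 8 (19.3 CPM).

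**Figure D3:**
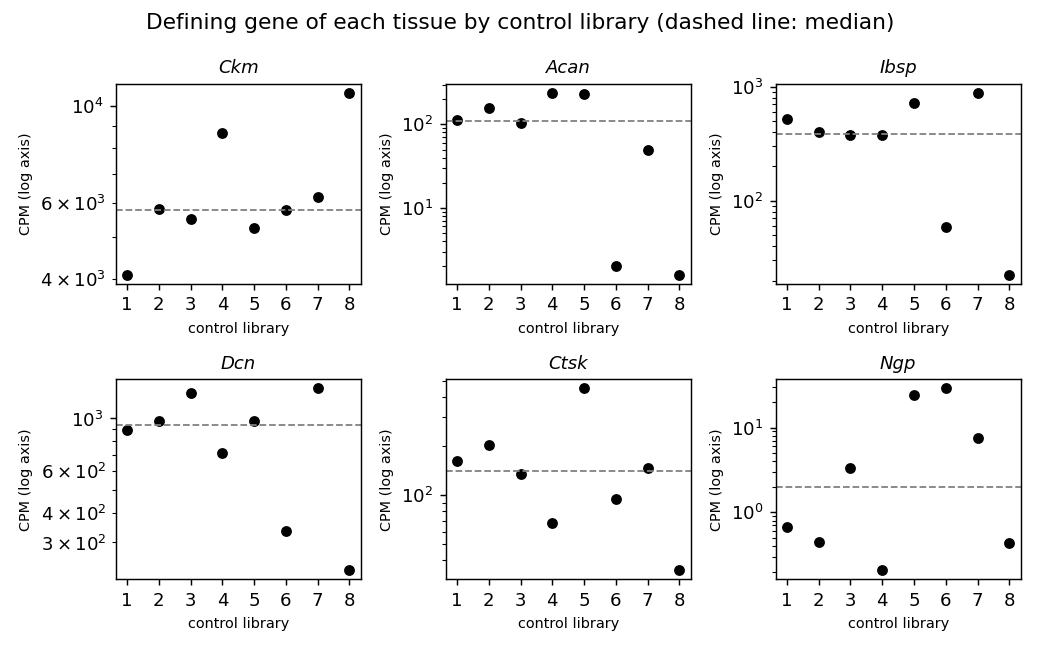
CPM (log axis) of the 6 defining genes in control libraries 1 to 8, with the median as a dashed line. *Ckm* stays within 4099 to 10738 CPM, while *Acan* and *Ibsp* drop in libraries 6 and 8, *Ctsk* peaks in library 5 and *Ngp* is high in libraries 5 and 6.

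Blood and marrow cells were present at low level and unequally. *Ngp*, a granule protein of immature neutrophils (chr9:110419747-110423012), read 0.672, 0.443, 3.32, 0.207, 24.3, 28.9, 7.54 and 0.439 CPM. *S100a9*, an abundant neutrophil protein, read 2.77, 1.44, 15.2, 2.48, 35.8, 37.3, 10.6 and 1.54 CPM, with the same libraries, 5 and 6, highest. Of 14 neutrophil genes 10 were kept, and *Elane*, *Mmp8*, *Cebpe* and *Fcnb* fell below the limit. Haemoglobin was more abundant, with *Hba-a1* at 646 TPM and *Hbb-bs* at 601 TPM. *Slc4a1*, the anion exchanger of red cells, read 9.71, 2.82, 16.6, 0.672, 4.51, 65.5, 4.52 and 3.13 CPM and was highest in library 6, as was *Alas2*, the haem synthesis enzyme of red cells, at 33.5 CPM. *Cd79a*, of the B cell receptor, read 1.64, 0.719, 2.34, 0.775, 9.03, 0.18, 1.70 and 0.384 CPM, highest in library 5. *Ighm*, the heavy chain of IgM, did not follow it and was highest in library 8 at 299.9 CPM. No gene of the T and NK cell list was kept, and *Cd3e* did not pass 0.439 CPM. Mast cell proteases were at the limit, with *Mcpt4* kept at a mean of 2.36 TPM and *Cpa3*, *Cma1* and *Tpsb2* not kept. Macrophage genes were all kept, led by *Lyz2* (lysozyme), which read 60.2, 79.5, 79.1, 52.5, 135, 113, 63.3 and 31.4 CPM.

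Vessel genes varied less. *Cdh5*, the cadherin of endothelial junctions, read 89.3, 98.5, 76.2, 76.4, 99.7, 109.7, 173 and 98.0 CPM, and *Pecam1* lay at 76.9 to 152 CPM (median 96.5). Both were highest in library 7. The endothelial list made up 0.0543% ± 0.0135 (SD, n = 8) of nuclear protein-coding TPM. *Rgs5*, a pericyte gene, lay at 247 to 492 CPM (median 338), and *Acta2*, smooth muscle actin, at 38.1 to 195 CPM (median 79.7).

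Nerve-sheath genes split the libraries. *Prx* (periaxin), a protein of Schwann cell myelin, read 227, 5.64, 4.23, 3.26, 204, 5.04, 23.3 and 5.05 CPM, and libraries 1 and 5 stood well apart from the other 6. The Schwann cell list of 11 genes summed to 0.35% of nuclear protein-coding TPM in library 1, 0.28% in library 5 and at most 0.0408% in the others. *Mbp*, which central myelin also contains, was high in library 6 as well, at 211 CPM. The synaptic gene *Snap25* read 131, 0.221, 3.72, 7.75, 1.55, 26.7, 4.21 and 1.48 CPM, and here library 5 was low while library 1 was highest. *Adipoq* (adiponectin) and *Plin1*, fat cell genes, were highest in library 1, at 18.4 and 26.7 CPM, against at most 6.17 and 7.03 CPM. The keratins *Krt5* and *Krt14* of basal epithelium were at 86.1 and 41.4 CPM in library 1 and 62.1 and 23.7 CPM in library 2, and did not pass 7.86 and 2.07 CPM in the rest. Of 9 salivary gland genes only *Amy1* and *Bpifa2* were kept, and the gland-specific *Smgc* and *Dcpp2* had no count in any library.

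The lysyl oxidase genes and the matrix enzymes of interest were all expressed, and only *Il1b* of 16 such genes was not kept. *Loxl2* (chr14:69609068-69695834), intact in these animals by design, read 76.4, 81.4, 70.9, 89.7, 99.6, 25.4, 48.3 and 11.5 CPM and was lowest in library 8, then in library 6. *Loxl1* was the highest of the family per length at 32.6 TPM, then *Loxl2* at 23.5 TPM, *Loxl3* at 19.8 TPM, *Lox* at 14.1 TPM and *Loxl4* at 3.59 TPM. *Loxl2* ranked 2849 among 13219 nuclear protein-coding genes kept, and *Acan* 2251. *Lox* read 45.1, 22.5, 37.6, 23.9, 80.6, 12.7, 31.1 and 6.48 CPM, highest in library 5. *Mmp13*, the collagenase of hypertrophic cartilage and bone, read 174, 226, 223, 87.3, 275, 56.3, 232 and 26.9 CPM. The aggrecanases *Adamts4* and *Adamts5* lay at 0.659 to 4.80 CPM (median 2.07) and 6.04 to 35.3 CPM (median 21.0). *Ptgs2*, which encodes COX2, had 0.24 to 2.56 CPM, and *Il1b* was not kept, with no value above 0.286 CPM. *Gpx4*, *Sod1* and *Txnrd2*, enzymes that quench reactive oxygen, varied little, and *Gpx4* lay within 299.7 to 393 CPM.

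Across all genes kept, the median SD of log2 CPM over the 8 libraries was 0.35, and 1404 genes (9.66%) had an SD above 1. The common biological coefficient of variation, the spread beyond counting error, was 41.3%. The most variable protein-coding genes with a mean of at least 10 CPM were Y-linked (*Eif2s3y* and *Ddx3y*), secreted proteins of nose and mouth glands (*Bpifb9b*, *Bpifb9a* and *Bpifb3*), keratins (*Krt5* and *Krt17*), *Col10a1*, *Clec3a* and *Myh4*. *Bpifb9b* read 6.98, 0, 0, 0, 0.917, 239, 72.0 and 0.274 CPM, with libraries 6 and 7 highest. *Bpifb3* stood at 91.8 CPM in library 5 and did not pass 0.66 CPM elsewhere. The steadiest were *Mms19*, *Gripap1*, *Kdm1a*, *Ssr4*, *Borcs8*, *Ccni*, *Hp1bp3*, *Ehmt1*, *Hnrnpl* and *Gosr1*, genes of general use in DNA and chromatin upkeep, splicing and transport. *Mms19*, an iron-sulfur assembly factor, read 35.9, 32.9, 32.3, 28.5, 31.7, 27.1, 31.5 and 22.1 CPM, and its SD in scaled log2 CPM was 0.04.

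On principal components of the 500 most variable genes, the first held 41.0% of the variance. Library 1 had its lowest score (−63.7), followed by libraries 6 (−21.5) and 5 (−3.54), and library 8 its highest (33.2). *Myh4*, *Ddx3y* and *Eif2s3y* were among the genes with the largest positive weights on this component, and *Xist*, *Bpifb9b* and the neuronal genes *Calb1* and *Gad1* among the most negative. The second held 17.2%, and its negative side was led by *Clec3a*, *Col10a1*, *Vwa2*, *R3hdml* and *Acan*, with libraries 6 (33.1) and 8 (21.8) at the positive end. The third held 12.0% and set library 5 apart (−34.0), with *Bpifb3* and *Myh13*, the myosin of extraocular muscle, at its negative end. *Myh13* read 62.8 CPM in library 5 and at most 7.5 CPM in any other.

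**Figure D4:**
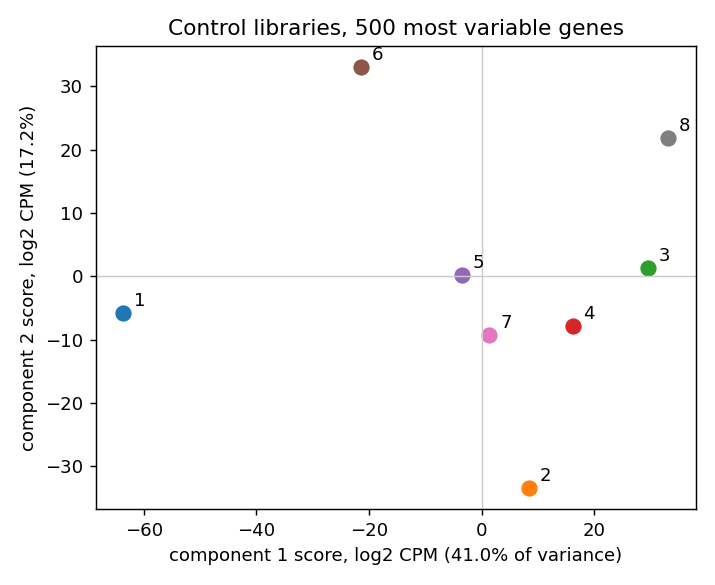
Scores of the 8 control libraries on the first and second principal component of log2 CPM of the 500 most variable genes, each point labelled with its library number. Library 1 lies alone at the left, at −63.7, and libraries 6 and 8 lie highest.

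To ask which genes varied together, every gene was fitted against the log2 CPM of each of 6 defining genes by edgeR's quasi-likelihood test, with Benjamini-Hochberg adjustment over all 14533 other genes. A slope of 1 means that a gene doubled when the defining gene doubled. The labels give the libraries as separate samples and no more, so p-values measure the spread between these samples only. Many calls rested on single libraries, so each count is followed by its values without them. The scaling mattered as well: the fit scaled libraries by TMM, and with library totals alone the median slope of all genes moved from 0.0059 to 0.101 for *Ibsp*, from −0.0017 to 0.172 for *Ctsk*, from −0.0342 to −0.5 for *Ckm* and from 0.000811 to 0.198 for *Dcn*. Directions below are relative to the TMM-scaled level.

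With *Acan*, 81 genes rose (0.557% of those tested) and 12 fell (0.0826%) at an adjusted p under 0.05, so 87.1% of the calls were positive, against 98.4% with library totals and 77% by DESeq2. None of the 14 other cartilage genes passed edgeR's test, 12 had an unadjusted p under 0.05 and DESeq2 called 12. Of the 14, 12 had a slope above 0 and their median slope was 0.64 against 0.00152 over all genes. Among hypertrophic cartilage, fibrous tissue and osteoblast genes, 3 of 6, 4 of 18 and 4 of 12 rose. *Alpl* is on both the hypertrophic cartilage and the osteoblast list, so the counts of these lists, here and for *Ibsp* below, are not of wholly separate genes. *Tnn* (tenascin N), a matrix protein of bone and periosteum, rose with a slope of 0.49 ± 0.0355 (SE) and an edgeR adjusted p of 0.0022. It read 296, 349.5, 278, 396, 352, 32.2, 222 and 34.8 CPM and was lowest in libraries 6 and 8. *Wif1*, a Wnt inhibitor, *Panx3*, a channel of hypertrophic chondrocytes, *Col27a1*, a cartilage collagen, and *Cilp*, of the intermediate layer, rose with slopes of 0.69, 0.80, 0.52 and 0.47. In all 4 of these, too, libraries 6 and 8 were lowest. *mt-Co3*, *mt-Co2* and the respiratory subunit *Ndufa2* fell, and none of these 3 passed with library totals. The count of 93 in either direction was 5 without library 8, 6 without library 2, 25 without library 3, 27 without library 6, 43 without library 5 and 243 without library 4. No gene passed without libraries 6 and 8.

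With *Ibsp*, 329 genes rose (2.26%) and 43 fell (0.296%), so 88.4% of the calls were positive, against 66.6% by DESeq2. Of the 15 cartilage genes 11 rose, as did 7 of 11 other osteoblast genes, 4 of 6 hypertrophic cartilage genes and 5 of 18 fibrous tissue genes, while no fast muscle gene passed edgeR's test. Of the 16 fast muscle genes 11 had an unadjusted p under 0.05, and DESeq2 called 4, all negative. The median slope of the cartilage genes was 1.22, and that of all genes 0.0059. *Col10a1* had a slope of 1.90 ± 0.22 (SE) (edgeR adjusted p = 0.00697), and *Clec3a*, *Snorc* (a small proteoglycan of cartilage), *Acan* and *Meltf* (melanotransferrin) slopes of 1.79, 1.60, 1.59 and 1.44. *Acan* did not pass with DESeq2 size factors. *Kbtbd12*, a muscle Kelch protein, fell with a slope of -0.65 ± 0.123 (SE). It read 14.3, 19.7, 26.1, 19.4, 16.1, 13.6, 12.6 and 116 CPM, and library 8 alone was high. *Neto2* also fell, with a slope that ranged from −0.739 to −0.202 when 1 library was left out, and did not pass with library totals. *mt-Co3* fell as with *Acan*. The count of 372 in either direction was 0 without library 8, 122 without library 5, 205 without library 2 and 224 without library 3. No gene passed without libraries 6 and 8.

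With *Ctsk*, 19 genes rose (0.131%) and none fell. Among these were 5 of 10 other osteoclast genes, 2 of 11 macrophage genes and 1 of 12 osteoblast genes, *Bglap*. *Acp5* had a slope of 1.21 ± 0.0845 (SE) (edgeR adjusted p = 0.00166), *Mmp9* one of 1.23 ± 0.105 (SE) and *Atp6v0d2*, a proton pump subunit of osteoclasts, one of 1.17 ± 0.126 (SE). *Bpifb3*, with the steepest slope, was counted almost wholly in library 5. The count was 0 without library 5, 2 without library 8, 8 without library 3, 12 without library 2 and 33 without library 1. In either direction 2710 genes had an unadjusted p under 0.05, and DESeq2 called 794, of which 70.3% were positive.

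With *Ckm*, the creatine kinase of muscle (chr7:19404776-19422841), 1163 genes rose (8% of those tested) and 783 fell (5.39%). This split depended on the scaling, since with library totals 206 genes rose and 2892 fell. Of the other fast muscle genes 11 of 15 rose, with a median slope of 0.936, and 9 did with library totals. Of the mitochondrial ribosome genes 12 of 77 rose, with a median slope of 0.292 that turned to −0.0534 with library totals, where none passed and 4 had an unadjusted p under 0.05. Of the nuclear oxidative phosphorylation genes 7 of 82 rose, a share near the 8% of all genes, with a median slope of 0.285 that turned to −0.0919 with library totals, where 2 fell. The Schwann cell genes fell in 3 of 11 cases and the adipocyte genes in 4 of 8, while 1 of the latter rose (*Plin4*, a lipid droplet protein also found in muscle, named after its value was seen). *Actn3*, the alpha-actinin of the fastest fibres, rose most at 2.28 ± 0.193 (SE) (edgeR adjusted p = 0.00301) and read 185, 559, 839, 1691, 398, 474, 549 and 3604 CPM. *Mybpc2*, a fast myosin-binding protein, followed at 1.83 ± 0.222 (SE), and *Kbtbd12*, the predicted gene *Gm12185* and a second gene entered under the symbol *Aldoa* also rose. The genes *Sept3*, *Vat1l* and *Calb1*, the first and last known from neurons, fell with slopes of −4.49, −4.15 and −4.55, and all were highest in library 1. The slope of *Calb1* ranged from −7.01 to −0.333 when 1 library was left out, and DESeq2 did not call it. The count of 1946 in either direction was 0 without library 8, 341 without library 1 and 1249 without library 5.

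With *Dcn*, 27 genes passed (0.186%), of which 21 rose (0.144%) and 6 fell (0.0413%). Those that rose included 3 of 12 osteoblast genes and none of the 17 other fibrous tissue genes, of which 9 had an unadjusted p under 0.05 and DESeq2 called 8. With library totals 98.3% of the calls were positive, against 77.8%. *1500015O10Rik* (augurin) rose at 2.81 ± 0.207 (SE), an edgeR adjusted p of 0.00272, and read 116, 157, 213, 104, 114, 8.22, 366 and 3.90 CPM. *Omd* (osteomodulin), *Scube1*, *Cemip*, which degrades hyaluronan, and *Chst1*, a sulfotransferase, had slopes of 2.14, 2.35, 2.06 and 2.05. In each of these libraries 6 and 8 were lowest. *mt-Co3* and *Tmem160* fell, the latter not past the threshold with library totals. The count of 27 in either direction was 0 without library 6, 1 without library 2, 1 without library 7, 2 without library 5, 4 without library 8, 15 without library 3 and 49 without library 1. It was 3 without libraries 6 and 8.

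With *Ngp*, 5 genes rose (0.0344%) and none fell, and 4 of them were among the 9 other neutrophil genes. *S100a8*, *Ltf* (lactoferrin) and *S100a9* had slopes of 0.90 ± 0.1 (SE), 0.84 ± 0.0925 (SE) and 0.70 ± 0.0783 (SE), each with an edgeR adjusted p of 0.0328. All 9 other neutrophil genes and all 12 erythroid genes had slopes above 0, and none of the erythroid genes passed edgeR's test, while 9 had an unadjusted p under 0.05 and DESeq2 called 1. With library totals no neutrophil gene passed, where 8 had an unadjusted p under 0.05. An unadjusted p under 0.05 was found for 413 genes in either direction, and DESeq2 called 24. Leaving out 1 library left 2 genes without library 3, 1 without library 4, 1 without library 5 and none without any other.

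The defining genes themselves were compared in 15 pairs on the log2 CPM scale. None passed after adjustment over the pairs, the lowest adjusted p by exact permutation being 0.0718. Because libraries 6 and 8 form a cluster of their own in *Acan* and *Ibsp*, those pairs are given over the other 6 libraries. There Pearson's r of *Acan* with *Ibsp* was −0.407 (exact permutation p = 0.408, adjusted 0.706) and Spearman's rho −0.314 (p = 0.564, adjusted 0.94). *Ibsp* and *Dcn* had an r of 0.375 (exact permutation p = 0.471, adjusted 0.706) and a rho of 0.0286 (p = 1, adjusted 1). *Ctsk* and *Ckm*, over all 8 libraries, had r = −0.743 (exact permutation p = 0.0387, adjusted 0.145) and rho = −0.738 (p = 0.0458, adjusted 0.496), and r was −0.646 without libraries 5 and 8. All p-values are two-sided.

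How tightly the genes of a list moved together was described by the median Pearson r over its gene pairs, with no test. Over all genes kept the median was −0.00155, and 6.16% of pairs were above 0.7. It was 0.889 for neutrophil genes, 0.887 for Schwann cell genes, 0.88 for cartilage genes, 0.863 for osteoblast genes, 0.857 for osteoclast genes and 0.852 for fast muscle genes. It was near that of all genes for keratinocyte genes (0.00358), circadian clock genes (0.00332) and, at 0.103, for smooth muscle and pericyte genes. When libraries 6 and 8 were left out, the cartilage median fell to 0.0645, that of hypertrophic cartilage from 0.793 to −0.0385 and that of osteoblast genes to 0.448. The medians of osteoclast (0.859), neutrophil (0.862), Schwann cell (0.97) and fast muscle (0.786) genes were then little different, but library 5, highest in osteoclast genes, and libraries 1 and 5, highest in Schwann cell genes, were still included. The points of these correlations share library, depth and composition.

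**Figure D5:**
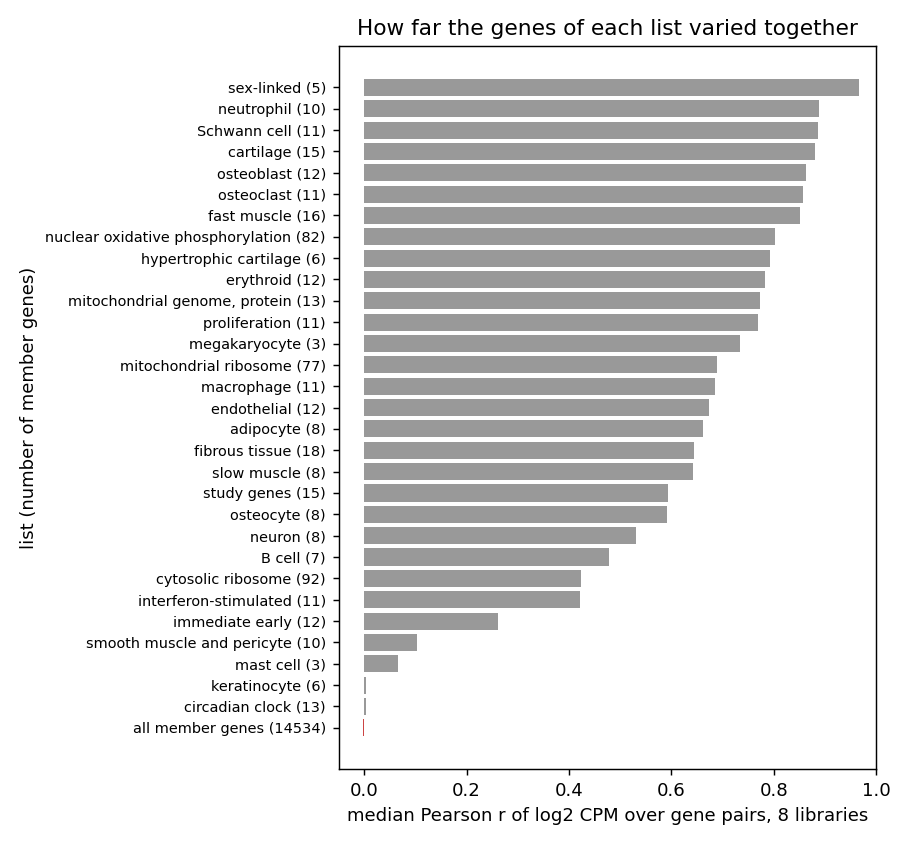
Median Pearson r of log2 CPM over the gene pairs of each list across the 8 control libraries, with the number of genes kept in brackets. Neutrophil, Schwann cell and cartilage genes lie near 0.88 and the bar of all genes kept is close to 0.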

How the data were processed

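Each of the 8 control libraries is RNA of condylar heads from the vehicle group. Whole-number counts per gene were deposited by the authors, who trimmed paired-end reads, mapped them to mm10 and counted them with featureCounts. The aligner settings, annotation release and strand setting are not given in the sources used here. Gene positions and exon lengths came from GENCODE M21 (GRCm38), matched by gene identifier for 14531 of the 14534 genes kept. The 12 knockout columns were not used, and 0 columns lacked a sample.

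CPM used library totals of all counts. Fits used edgeR 4.0.16 (quasi-likelihood, TMM scaling) in R 4.3.3, with limma 3.58.1 loaded and DESeq2 1.42.0 as an alternative, and were tested on simulated data first. Log2 CPM used a prior count of 2. Depth ran from 14177222 to 23795467 counts, and floors of detection cover counting error only, while SDs and SEs include the spread between libraries. Alternatives were library totals alone, DESeq2 size factors, no low-count filter, longest-transcript lengths, other denominators of TPM, libraries left out, and 2 chosen after seeing the data (nuclear protein-coding TPM, and likeness without libraries 6 and 8).

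The members and the 32 lists were chosen with earlier results of these data known. Named genes were the 10 nuclear genes of highest TPM, the mitochondrial protein genes, each list's defining gene and its 3 highest by TPM, for each defining gene the 5 steepest positive and 3 steepest negative protein-coding slopes that passed (mean CPM of 5 or more), the 10 most and 10 least variable protein-coding genes (mean CPM of 10 or more), the study's genes and sex-linked genes. Other genes were chosen after their values were seen, as were the 6 promoters shown. Genes that share reads with near-identical copies (*Hba*, *Hbb*, *Bglap*, mitochondrial genes, *Gm23935*) or overlap others are uncertain. Values of some single genes are not reported here.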

Additional observations from a re-analysis of the deposited data

Results flagged for a closer look

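In 15 of 80 values examined, 1 library lay farther from the other 7 than Dixon's critical value for 8 samples allows, always on the high side. Chance gives about 1 in 20 for independent, normally distributed values, a rate that does not hold for these skewed and partly overlapping values. Library 5 was the outlying library in 6 of them, library 1 in 5, library 7 in 3 and library 6 in 1.

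In library 5 the summed TPM was 9597 for the fibrous tissue list (next highest 4503), 1637 for the osteoclast list (next 514.8) and 605.8 for the macrophage list (next 314.4). As percentages of nuclear protein-coding TPM these sums were 1.719% (next 0.9749%), 0.2933% (next 0.1115%) and 0.1085% (next 0.07046%). Dixon's rule was not applied to the percentages. The single genes flagged in library 5 were *Ctsk* at 450.2 CPM (next 202.3), *Mmp9* at 409.8 CPM (next 128.7) and *Cd79a*, a B cell receptor subunit, at 9.029 CPM (next 2.344). In library 1 the summed TPM was 538 for the adipocyte list (next 349.8) and 150.3 for the neuron list (next 65.54), and *Snap25* had 130.6 CPM (next 26.7), *Adipoq* 18.41 CPM (next 6.173) and the salivary and airway gene *Bpifa2* 17.78 CPM (next 2.25). In library 7 the endothelial list summed to 480.6 TPM (next 323.3), *Cdh5* had 172.9 CPM (next 109.7) and *Col10a1* 307.4 CPM (next 69.85). In library 6 the interferon-induced *Isg15* had 4.56 CPM (next 2.137). The whole interferon-stimulated list summed to 58.146 TPM there, beside a median of 57.707 over the 8 libraries.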

How the results depend on the processing

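No paired analysis was possible because the values come from 1 group of 8 libraries. In bulk RNA of 8 libraries, depth limits genes near 1 CPM, and slopes rest on the few libraries where a defining gene is far from its mean. TPM is scaled to the same total in each library, so leaving genes out of that total raises the TPM of the genes that remain. The cause of the other moves below was not tested.

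The number of genes varying with *Acan* was 174 with no filter on low counts. With library totals alone the numbers were 1274 (*Ibsp*), 496 (*Ctsk*), 3098 (*Ckm*), 0 (*Ngp*) and 528 (*Dcn*). By DESeq2's Wald test they were 787 (*Acan*), 1453 (*Ibsp*), 794 (*Ctsk*), 3283 (*Ckm*), 24 (*Ngp*) and 729 (*Dcn*). Without the 2 libraries farthest from the median they were 0 for *Acan*, *Ibsp*, *Ctsk*, *Ckm* and *Ngp* and 3 for *Dcn*. Leaving out 1 library gave 5 to 243 (*Acan*), 0 to 363 (*Ibsp*), 0 to 33 (*Ctsk*), 0 to 2089 (*Ckm*), 0 to 2 (*Ngp*) and 0 to 49 (*Dcn*) genes, a common biological coefficient of variation of 37.67% to 42.91% and a first component of 26.97% to 46.24%. The genes kept numbered 14247 to 14681.

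Without the 2 farthest libraries, r turned to -0.407 (*Acan* and *Ibsp*), 0.383 (*Acan* and *Ckm*), -0.658 (*Acan* and *Dcn*), -0.0242 (*Ctsk* and *Ngp*) and 0.531 (*Ckm* and *Ngp*), and slopes turned to -0.0057 (*Col27a1* on *Acan*), -0.546 (*Acan* on *Ibsp*), 0.125 (*mt-Co3* on *Ibsp*) and -0.0846 (*Bpifb3* on *Ctsk*). The r of *Ibsp* and *Dcn* passed with library totals, at 0.954. Leaving out 1 library, r ranged from -0.6 to 0.154 (*Acan* and *Ngp*), -0.29 to 0.446 (*Ibsp* and *Ngp*), -0.262 to 0.46 (*Ngp* and *Dcn*) and 0.871 to 0.974 (*Ibsp* and *Dcn*). Of the slopes of named genes under settings other than leaving out 1 library, 146 held, 45 were no longer past the threshold and 4 turned. When 1 library was left out, 168 held and 144 were no longer past the threshold.

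With nuclear protein-coding genes alone in the denominator, the mean summed TPM rose to 3.872 (T and NK cell), 542.1 (adipocyte), 3668 (cartilage), 1060 (circadian clock), 44550 (cytosolic ribosome), 543.3 (endothelial), 2992 (erythroid), 171900 (fast muscle), 8120 (fibrous tissue), 665.1 (hypertrophic cartilage), 629.4 (immediate early), 113.3 (interferon-stimulated), 593.7 (macrophage), 24.68 (mast cell), 56.26 (megakaryocyte), 6660 (mitochondrial ribosome), 123.3 (neuron), 73600 (nuclear oxidative phosphorylation), 4689 (osteoblast), 185.6 (osteocyte), 38.69 (proliferation), 94.31 (salivary gland), 445.2 (slow muscle), 769.2 (smooth muscle and pericyte) and 1584 (study genes). Without the mitochondrial genome it was 3.842 (T and NK cell), 391.9 (adipocyte), 760.2 (circadian clock), 31820 (cytosolic ribosome), 400.2 (endothelial), 123100 (fast muscle), 449 (immediate early), 81.61 (interferon-stimulated), 17.75 (mast cell), 4768 (mitochondrial ribosome), 52790 (nuclear oxidative phosphorylation), 66.3 (salivary gland), 55.04 (sex-linked), 552 (smooth muscle and pericyte) and 1131 (study genes). With longest-transcript lengths it was 624.3 (circadian clock), 27180 (cytosolic ribosome), 3704 (mitochondrial ribosome), 42720 (nuclear oxidative phosphorylation) and 69.47 (salivary gland).

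Without libraries 6 and 8 the median r within a list was 0.0645 (cartilage), -0.0385 (hypertrophic cartilage), 0.266 (fibrous tissue), 0.448 (osteoblast), 0.296 (osteocyte), 0.757 (B cell), -0.52 (mast cell), 0.5262 (megakaryocyte), 0.109 (study genes), 0.335 (mitochondrial genome) and 0.098 (cytosolic ribosome).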

Other observations

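Several genes known from tissues outside the joint were high in 1 or 2 of the libraries, and were chosen after their values were seen. In library 1 these were genes known from brain, among them *Calb1* at 41.6 CPM, *Zic1* at 67.0 CPM, *Gad1*, of GABA synthesis, at 28.5 CPM, and *Slc17a7*, a glutamate transporter, at 27.1 CPM. *Calb1* did not pass 1.32 CPM in any other library. *Mobp*, a gene of central myelin, read 55.6, 0.387, 2.80, 5.996, 6.98, 67.4, 3.77 and 11.5 CPM in libraries 1 to 8, with libraries 6 and 1 highest. In library 6 *Obp2a* and *Obp1a*, odorant-binding proteins of nasal glands, stood at 18.6 and 18.0 CPM beside *Bpifb9b* at 239 CPM. *Shh*, a secreted patterning signal, read 27.4, 29.9, 0, 0, 0, 0.18, 0 and 0 CPM, with libraries 1 and 2 highest, the same that held the keratins *Krt5* and *Krt14*. Whether tissue beside the condyle was carried into these samples was not tested.

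Another myosin stood apart from the 4 fibre forms. *Myh8*, the perinatal myosin heavy chain, read 327, 983, 326, 398, 219.8, 297, 363 and 2232 CPM, with libraries 8 and 2 highest. The clock gene *Arntl*, chosen after its values were seen, read 7.10, 5.53, 24.0, 12.9, 13.0, 5.46, 8.04 and 4.72 CPM over libraries 1 to 8 and was highest in library 3. The clock list took from 0.0893% of nuclear protein-coding TPM in library 6 to 0.125% in library 1, with 0.098% in library 3. The hour of collection is not given in the sources used here. Immediate early genes, which tissue handling can induce, took 0.055% to 0.0687% of nuclear protein-coding TPM and so varied little.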
